A study of Rattus norvegicus with 23 samples.

Results

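The genes described are 10 components of the elastic fibre and its surroundings (Eln, Fbn1, Fbln5, Lox, Loxl1, Mfap4, Mfap5, Ltbp4, Emilin1 and Sparc), taken by gene symbol from a table of 19249 genes. All 10 had a row, and all 10 passed the filter on low values (mean normalized count of 10 or more). RNA came from lung pieces of male rats, given as normalized counts for 22 libraries, each from a rat of its own. The air group (7 rats) breathed filtered air. The low smoke group (8 rats) and the high smoke group (7 rats) breathed smoke of eucalyptus wood with the whole body, at target carbon monoxide concentrations of 10 ppm and 20 ppm. Exposure ran for 4 days in week 1 and, after a break of 3 days, for 3 days in week 2. Strain and age are not given in the sources used here. A further sample labelled high smoke (numbered 8 in its group) is marked in its label as left out for quality and was not analysed here. The labels differ on this, since their protocol text places the sample removed for quality in the air group.

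Elastic fibres give the lung its recoil. Their core is elastin, which is secreted as a soluble precursor, laid down on microfibrils built from fibrillin, and cross-linked by copper-dependent lysyl oxidases. Fibulins and latent TGF-beta binding proteins guide that deposition, and small microfibril-associated glycoproteins coat the scaffold. In lung the fibres run through alveolar walls, airways, vessels and pleura, and most of their elastin is made while alveoli form.

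Of the 10 genes, 2 rose in high smoke against air: Mfap5, a glycoprotein that binds fibrillin microfibrils, rose 1.69-fold, and Sparc, a matricellular protein that binds collagen and calcium, rose 1.26-fold. The gene for elastin itself did not pass the test in any comparison. A gene is said to have risen or fallen where limma's Benjamini-Hochberg adjusted p over the 14414 genes tested was below 0.05. Beside the 2 of 10, 16.3% of all genes tested passed in that comparison (9.21% higher and 7.05% lower), so the count is close to the background. At an unadjusted p below 0.05 it was also 2 of 10, beside 30.7% of all genes. Between low smoke and air limma called 0 of the 10, with 2 (Fbn1 and Sparc) at an unadjusted p below 0.05. There 0% of all genes were called, and 923 of 14414 (6.4%) had an unadjusted p below 0.05. The exact rank-sum test also called 0 of the 10. With 8 and 7 libraries its smallest possible p is limited, so after adjustment it could hardly call any gene there. In high smoke against low smoke 1 of the 10 rose (Mfap5), beside 3.8% of all genes that were higher, 2.98% that were lower and 6.78% called in either direction. Eln and Mfap5 had an unadjusted p below 0.05 there, as did 25.6% of all genes.

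The libraries held 8484131 to 12055512 read equivalents. High smoke replicates 1, 3 and 7 stood apart on the first principal component of all genes tested, with scores of 51.5, 41.7 and 36.5 against 0.3 to 8.8 in the other 4 high smoke libraries and -21.6 to -0.3 in air. That component carried 19.7% of the variance. Without these 3 libraries, limma called 124 of 14394 genes (0.861%) in high smoke against air and 0 against low smoke, where 939 (6.52%) had an unadjusted p below 0.05. That fit holds 4 high smoke libraries. Lung identity of the tissue was checked on the 6 alveolar type 2 markers, all present, among them the surfactant gene Sftpc at 53126 to 152860 over the 22 libraries.

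**Figure D1:**
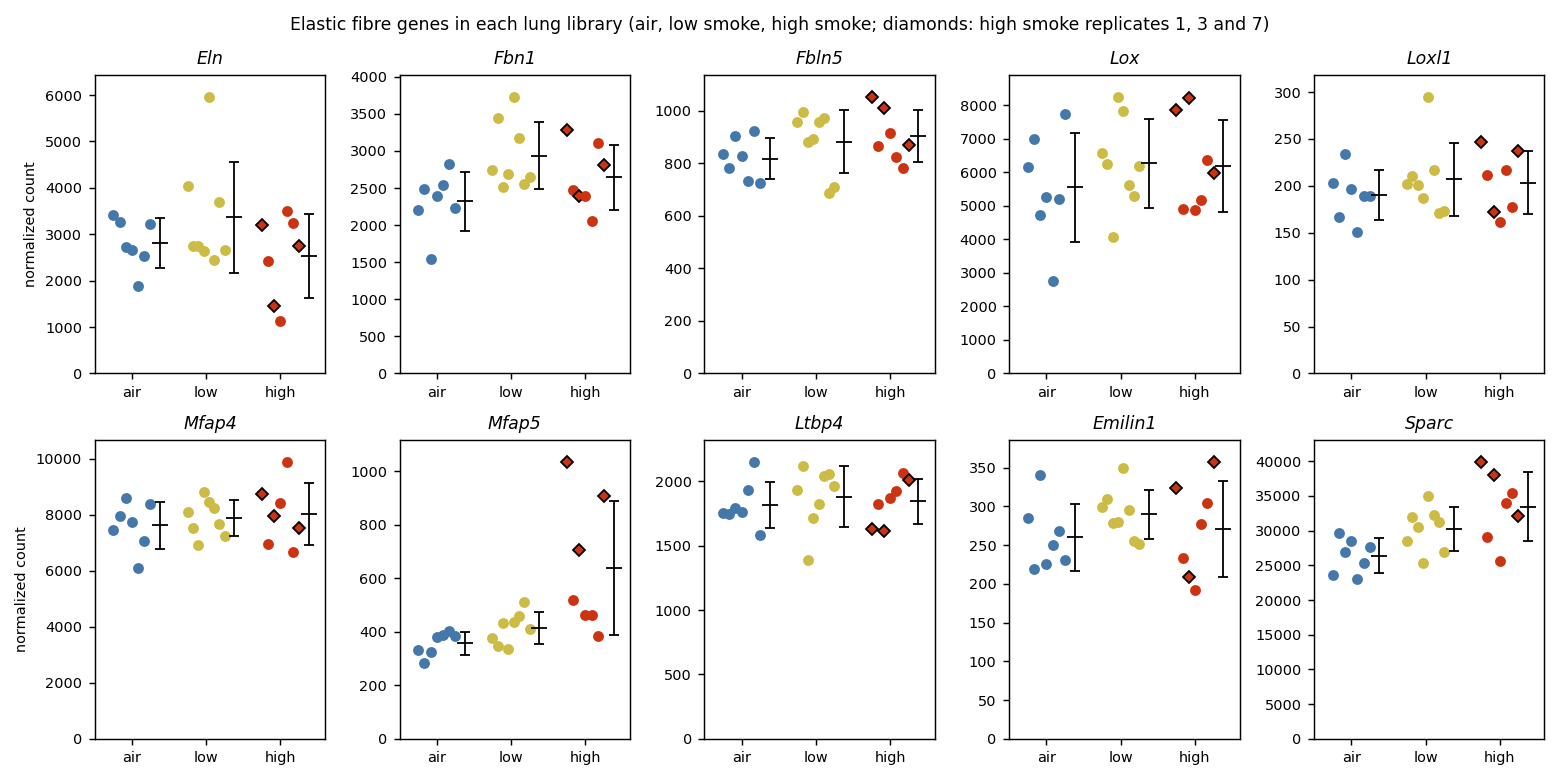
Normalized counts (vertical axes, starting at 0) of the 10 genes by group. Each point is a rat, the bar beside each group is the mean with its SD, and diamonds mark high smoke replicates 1, 3 and 7, which hold the 3 highest Mfap5 values (1035, 705 and 906).

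Mfap5 and Sparc are shown with the 250 bases before their RefSeq transcription start in build GRCr8, because they are the genes that passed the test in high smoke. RefSeq promoter entries matched 6 of the 10 genes (Fbn1, Fbln5, Loxl1, Mfap5, Ltbp4 and Sparc). The Mfap5 stretch lies at chr4:157399669-157399918 on the plus strand and that of Sparc at chr10:40038817-40039066 on the minus strand. Capitals mark matches, on either strand, to 7 short motifs named after the sequence.
Mfap5: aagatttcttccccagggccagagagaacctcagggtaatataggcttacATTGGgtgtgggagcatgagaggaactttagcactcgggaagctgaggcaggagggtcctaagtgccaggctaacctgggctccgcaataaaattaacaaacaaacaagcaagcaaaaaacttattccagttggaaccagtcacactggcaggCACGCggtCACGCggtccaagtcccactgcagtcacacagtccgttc
Sparc: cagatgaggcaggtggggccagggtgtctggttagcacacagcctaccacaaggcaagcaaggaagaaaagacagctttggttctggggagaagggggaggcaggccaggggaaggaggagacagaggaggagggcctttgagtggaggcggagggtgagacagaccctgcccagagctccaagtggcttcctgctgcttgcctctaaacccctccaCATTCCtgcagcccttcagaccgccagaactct

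The capitals in Mfap5 are a CCAAT box on the opposite strand, found in 34% of 33469 rat promoter stretches of this length, and a pair of the core bound by the aryl hydrocarbon receptor (GCGTG, opposite strand), found in 25.9%. The capitals in Sparc are the core bound by TEAD factors (GGAATG, opposite strand), found in 12.1%. The other motifs searched were the TATA box (TATAAA, 12.9% of promoters), the GC box (GGGCGG, 30.5%), the AP-1 site (TGANTCA, 6.34%) and the antioxidant response core (TGANNNNGC, 34.7%). None of these 4 was found in the Mfap5 or Sparc stretch. Over the 6 matched genes, the CCAAT box was found in Ltbp4 and Mfap5, GCGTG in Mfap5 and Fbln5, TGANNNNGC in Ltbp4, Fbln5 and Loxl1, GGGCGG in Ltbp4 and Fbln5, and GGAATG in Loxl1 and Sparc. The motifs are short and partly common, and a match describes letters only.

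Elastin is encoded by Eln (chromosome 12, 24978483 to 25021864, plus strand, build rn6). Its normalized count ran from 1893 to 3420 in air with a median of 2730, from 2440 to 5965 in low smoke with a median of 2748, and from 1140 to 3500 in high smoke with a median of 2755. The medians were thus nearly equal, and the groups overlapped and differed mostly in their extremes. High smoke replicate 5 (3500) lay above every air library, while replicates 3 (1462) and 4 (1140) lay below every air library, and low smoke replicates 1 (4031), 5 (5965) and 7 (3697) lay above every air library. The SD was 19% of the mean for air, 35.4% of it for low smoke and 36.2% of it for high smoke. The log2 difference was -0.23 in high smoke against air (SE 0.22, limma adjusted p = 0.512) and 0.22 in low smoke against air (SE 0.22, limma adjusted p = 0.903). Against low smoke, high smoke stood at -0.45 (95% interval -0.90 to -0.0032, limma adjusted p = 0.192), which did not pass. These intervals are wide: for high smoke against air they run from 0.618-fold to 1.17-fold.

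Among the microfibril components, Fbn1 (chromosome 3, 117569697 to 117766121, minus strand) encodes fibrillin-1, the main microfibril protein. It ran from 1547 to 2829 in air (median 2394), from 2520 to 3732 in low smoke (median 2712) and from 2053 to 3277 in high smoke (median 2473). In low smoke 8 of 8 libraries were above the air mean of 2320 ± 400 (SD, n = 7) and 3 were above every air library. The log2 difference in low smoke was 0.35 (SE 0.12, 1.27-fold, limma adjusted p = 0.697), which did not pass over all genes. In high smoke it stood at 0.19 (SE 0.12, limma adjusted p = 0.284), with 6 of 7 libraries above the air mean. The lowest air value, 1547 in replicate 3, came from the library that scored highest on the second principal component, at 44.6. Without it the low smoke difference was 0.25 (limma adjusted p = 0.828).

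Mfap5 (chromosome 4, 155313671 to 155336229, plus strand) encodes microfibril-associated glycoprotein 2. It ran from 285 to 403 in air (median 379), from 336 to 511 in low smoke (median 421) and from 386 to 1035 in high smoke (median 518). In high smoke 6 of 7 libraries lay above every air library, and replicate 6 (386) lay within the air range. Replicates 1, 3 and 7, which stood apart over all genes, held 1035, 705 and 906, while the other 4 held 386 to 518. The high smoke mean was 639 ± 250 (SD, n = 7). The means of low smoke and air were 414 ± 58.7 (SD, n = 8) and 357 ± 43 (SD, n = 7).

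As a log2 difference, the rise in high smoke against air was 0.76 (SE 0.17, limma adjusted p = 0.00396), which ranked 234 of 14414 genes from the largest rise. Against low smoke it was 0.55 (SE 0.16, 1.46-fold, limma adjusted p = 0.0417), with 4 of 7 libraries above every low smoke library. In low smoke against air it was 0.21 (SE 0.16, limma adjusted p = 0.873), with 5 of 8 libraries above every air library. Without high smoke replicates 1, 3 and 7 the difference from air was 0.36 (1.28-fold, limma adjusted p = 0.142) and that from low smoke 0.15 (limma adjusted p = 0.834), so neither call held. These libraries hold the 3 highest Mfap5 values, and the fit keeps 4 high smoke libraries. A smaller difference thus follows from the choice of libraries. The SE of Mfap5 did not grow in that fit. It was 0.115 against air and 0.112 against low smoke, beside 0.166 and 0.161 with all libraries. The comparison with low smoke also lost its call without any 1 of high smoke replicates 1, 3 and 7 and of low smoke replicates 1, 2, 3, 4, 6 and 8 (limma adjusted p 0.0502 to 0.117).

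Mfap4 and Emilin1 are further proteins of the fibre surface. Mfap4 (chromosome 10, 47765432 to 47768484, plus strand), a fibrinogen-related protein that binds elastin and fibrillin, ran from 6110 to 8597 in air (median 7759), from 6927 to 8824 in low smoke (median 7891) and from 6682 to 9886 in high smoke (median 7956). Its groups overlapped nearly throughout, and the difference in high smoke against air was 0.07 (95% interval -0.11 to 0.25, limma adjusted p = 0.611). Emilin1 (chromosome 6, 26821255 to 26828973, minus strand), found at the interface of elastin and microfibrils, ran from 219 to 340 in air (median 250), from 251 to 350 in low smoke (median 288) and from 192 to 357 in high smoke (median 277). Its difference was 0.04 in high smoke (95% interval -0.21 to 0.30, limma adjusted p = 0.851) and 0.17 in low smoke (95% interval -0.08 to 0.41, limma adjusted p = 0.86). The row of Emilin1 overlaps that of LOC108348062 on the opposite strand, which ran from 715 to 1272 over the libraries and rose in high smoke against air (0.41, limma adjusted p = 0.00187). Mfap4 likewise overlaps Mapk7 on the opposite strand (300 to 477). Whether reads were counted by strand is not given in the sources used here, so reads of such pairs may not be told apart.

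The assembly proteins did not pass in any comparison. Fbln5 (chromosome 6, 125644804 to 125723945, minus strand) encodes fibulin-5, which tethers elastin to microfibrils and cells. It ran from 726 to 923 in air (median 828), from 686 to 998 in low smoke (median 925) and from 782 to 1054 in high smoke (median 871). Its differences were 0.14 in high smoke (95% interval -0.04 to 0.32, limma adjusted p = 0.3) and 0.10 in low smoke (95% interval -0.08 to 0.28, limma adjusted p = 0.882). In low smoke the libraries lay apart, 4 above every air library and 2, replicates 7 (686) and 8 (711), below every air library. Without high smoke replicates 1, 3 and 7 the high smoke difference was 0.05. Ltbp4 (chromosome 1, 84118046 to 84150085, minus strand) encodes latent TGF-beta binding protein 4, which works with fibulin-5 in elastin assembly. It ran from 1586 to 2150 in air (median 1759), from 1390 to 2117 in low smoke (median 1948) and from 1613 to 2063 in high smoke (median 1867). No smoke library lay above the highest air library, low smoke replicate 3 (1390) lay below the lowest, and the difference in high smoke was 0.02 (95% interval -0.15 to 0.20, 0.899-fold to 1.15-fold, limma adjusted p = 0.888).

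The cross-linking enzymes did not pass in any comparison. Lox (chromosome 18, 47500330 to 47577820, minus strand), the founding lysyl oxidase, ran from 2758 to 7737 in air (median 5272), from 4080 to 8254 in low smoke (median 6227) and from 4870 to 8210 in high smoke (median 5966). Its lowest value was in air replicate 5, and the groups overlapped. The differences were 0.19 in high smoke (95% interval -0.18 to 0.57, limma adjusted p = 0.508) and 0.21 in low smoke (95% interval -0.16 to 0.57, limma adjusted p = 0.882). Without high smoke replicates 1, 3 and 7 the first was -0.01 (SE 0.21), and without air replicate 5 alone it was 0.03. Its sign is thus not settled. The row of Lox also covers Zfp474 on the opposite strand, which held 12 to 50 over the libraries. That row spans 77491 bases in build rn6, while Lox spans 12752 in build GRCr8. Loxl1 (chromosome 8, 63067300 to 63092010, minus strand), the paralog that fibulin-5 brings to elastic fibres, ran from 151 to 234 in air (median 190), from 171 to 295 in low smoke (median 202) and from 162 to 247 in high smoke (median 212). Its difference was 0.09 in high smoke (95% interval -0.15 to 0.34, limma adjusted p = 0.629) and 0.12 in low smoke (limma adjusted p = 0.901). The first was 0.02 without high smoke replicates 1, 3 and 7. The row of Loxl1 overlaps that of U2 on the same strand, which had a mean of 22.7 in air and 36.6 in high smoke.

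Sparc (chromosome 10, 40742400 to 40764186, minus strand) encodes osteonectin, which binds collagen in the matrix and is not a structural part of the elastic fibre. It ran from 22982 to 29676 in air (median 26989), from 25274 to 35046 in low smoke (median 30872) and from 25567 to 39895 in high smoke (median 33999). In high smoke 5 of 7 libraries lay above every air library, and replicates 2 (29134) and 4 (25567) lay within the air range. The high smoke mean was 33457 ± 4992 (SD, n = 7). The means of low smoke and air were 30220 ± 3170 (SD, n = 8) and 26388 ± 2506 (SD, n = 7).

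As a log2 difference, the rise of Sparc in high smoke against air was 0.33 (SE 0.10, limma adjusted p = 0.0202). In low smoke against air the difference was 0.19 (SE 0.09, 1.14-fold, limma adjusted p = 0.771), with 5 of 8 libraries above every air library. High smoke against low smoke stood at 0.14 (SE 0.09, limma adjusted p = 0.359). Without high smoke replicates 1, 3 and 7 the difference from air was 0.23 (limma adjusted p = 0.337). The call was also lost without replicate 1 alone (0.29, limma adjusted p = 0.0543) or replicate 3 alone (0.30, limma adjusted p = 0.0533).

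**Figure D2:**
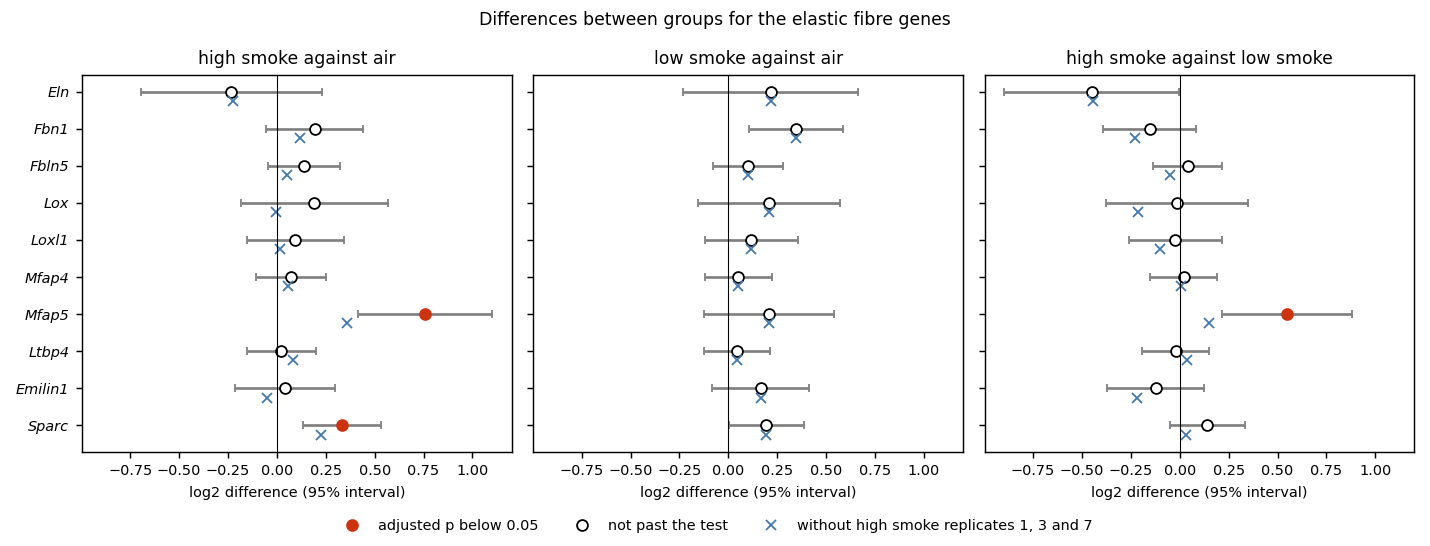
Log2 differences (horizontal axes) of the 10 genes in the 3 comparisons, with limma's 95% intervals as bars, filled points for genes past the test and crosses for the fit without high smoke replicates 1, 3 and 7. Mfap5 and Sparc stand out to the right in high smoke against air at 0.76 and 0.33, and Eln lies to the left in both comparisons of high smoke (-0.23 and -0.45).

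Seen across the 10 genes, 9 of 10 lay above air in high smoke, with Eln below, and 10 of 10 lay above air in low smoke. The median log2 difference was 0.118 in high smoke and 0.18 in low smoke, beside medians of -0.0021 and 0.0031 over all genes tested, of which 49.6% and 51.1% lay above air. Without high smoke replicates 1, 3 and 7, 7 of 10 lay above air in high smoke and the median was 0.0551, with Fbn1 at 0.12, Ltbp4 at 0.08 and Emilin1 at -0.05. Against low smoke that fit gave -0.21 for Lox, -0.10 for Loxl1, -0.22 for Emilin1 and 0.03 for Sparc. Both comparisons share the air libraries, so their signs are not independent of each other. In size the 10 genes were ordinary in high smoke, with a median absolute difference of 0.166 against 0.172 over all genes, while in low smoke it was 0.18 against 0.0892. Between the smoke groups, 4 of 10 lay above in high smoke and the median was -0.02.

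Single libraries carried much of the variation. Low smoke replicate 5 had the highest value of its group for 5 of the 10 genes (Eln, Fbn1, Loxl1, Emilin1 and Sparc), and high smoke replicate 1 for 5 (Fbn1, Fbln5, Loxl1, Mfap5 and Sparc). High smoke replicate 4 had the lowest value of its group for 5 (Eln, Lox, Loxl1, Emilin1 and Sparc), and air replicate 5 for 5 (Eln, Lox, Loxl1, Mfap4 and Sparc). High smoke replicate 3 combined the highest Lox of its group (8210) with the second lowest Eln (1462).

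**Figure D3:**
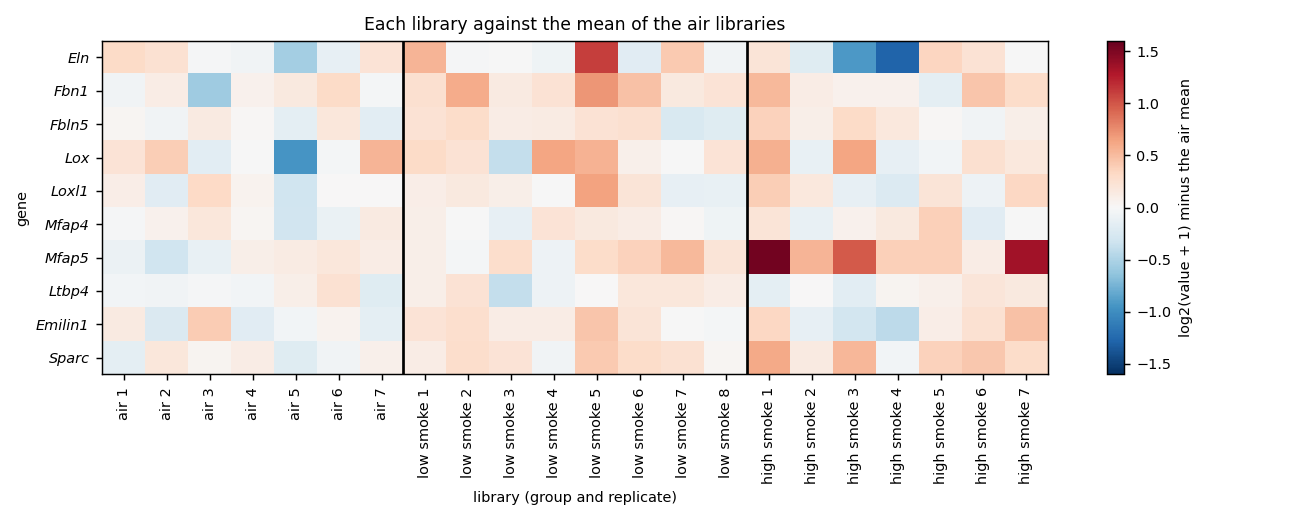
Log2(value + 1) of the 10 genes (rows) in each of the 22 libraries (columns), after subtracting the mean of the air libraries; red is above it and blue below. The Mfap5 row is darkest in high smoke replicates 1, 3 and 7, the Eln row is bluest in high smoke replicates 3 and 4, and low smoke replicate 5 is red in Eln, Fbn1, Loxl1, Emilin1 and Sparc.

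To describe which of these genes vary alike from rat to rat, log2 values were centred on the mean of each group and compared over the 22 libraries, which share scaling and depth. Of the 45 pairs, 36 had a Pearson r above 0 and 4 an r of at least 0.5, with a median of 0.24. Loxl1 and Emilin1 were most alike (r = 0.74), followed by Eln with Loxl1 (0.62) and Eln with Emilin1 (0.59), and these were 0.67, 0.56 and 0.53 without high smoke replicates 1, 3 and 7. Eln varied little with its microfibril partner Fbn1 (0.20) and with Fbln5 (-0.10). Mfap5 and Sparc had an r of 0.34, which was -0.03 without the 3 libraries. The least alike were Fbn1 and Mfap4 (-0.32).

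Over all genes tested, those most like Eln by the same measure were Ndufa11 (r = 0.752), Plpp3 (0.744) and Clspn (0.729). Those most like Fbn1 were Trrap (0.832), Olfml3 (0.828) and Plxdc2 (0.826), and those most like Loxl1 were Chpf (0.827), Ttc9 (0.792) and the collagen gene Col1a1 (0.758). Mfap5 was most like Ckap4 (0.854), Ddrgk1 (0.85) and the ribosomal protein gene Rpl11 (0.849). Sparc was most like Aplnr, the apelin receptor (0.765), Taf12 (0.754) and Il17re (0.752). Lox was most like Nipal1 (0.883), Stk17b (0.834) and Plcl2 (0.831), and Fbln5 like Ywhaz (0.799), Fam107b (0.754) and Blk (0.734). Mfap4 was most like Tmem186 (0.811), Cd81 (0.744) and Cd79b (0.736). Ltbp4 was most like Ctr9 (0.79), Tex2 (0.758) and the metalloproteinase inhibitor Timp2 (0.753), and Emilin1 like Tmem223 (0.862), Pdia3 (0.795) and the protease inhibitor Cst3 (0.782). With 14414 genes searched over 22 libraries, high values arise readily, and they are given as a description.

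The wider pathway was taken from lists of 87 other genes, of which 76 were tested. In high smoke against air 7 rose and 5 fell, or 15.8% beside 16.3% of all genes, with a median of -0.08. Between low smoke and air limma called 0, and in high smoke against low smoke 3 rose and 8 fell (14.5% beside 6.78%). None of these calls held without high smoke replicates 1, 3 and 7, and those against low smoke fell to 0 without any 1 of them. The differences kept their sign there in 12 of 12 genes against air, with a median size of 0.32 in place of 0.372. Serpina1 stood at 0.59, Dcn at 0.47, Tgfb1 at 0.34, Thbs1 at -0.34 and Itgb6 at -0.31, while 3 genes shrank by over 1.5 times (Tgfbr2 to -0.24, Ctss to 0.12 and Cst3 to 0.14). Against low smoke the sign was kept in 11 of 11, with a median size of 0.252 in place of 0.381. There 6 shrank by over 1.5 times: Bgn to -0.16, Itgav to -0.22, Tgfbr2 to -0.25, Smad4 to -0.12, Ctss to 0.17 and Spock2 to -0.29. The lists are taken singly below. Beside their counts, 9.21% of all genes rose and 7.05% fell in high smoke against air. Against low smoke 3.8% rose and 2.98% fell. The lists are small, so their counts do not show that a list departs from these shares.

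Among 10 other microfibril-associated genes tested, 2 rose and 0 fell in high smoke against air: Dcn, the collagen-binding proteoglycan decorin, rose 1.48-fold from 4397 ± 1177 to 6425 ± 1165 (SD, n = 7 each, limma adjusted p = 0.00631), and Vtn, the adhesion protein vitronectin, 1.39-fold. Vtn had the smallest p in low smoke against air (0.25, limma adjusted p = 0.727). Dcn also rose against low smoke, by 0.60 on the log2 scale, where Bgn, the related biglycan, fell by 0.28 on the log2 scale (limma adjusted p = 0.0435). The microfibril genes Fbn2 and Mfap2 were under the filter, at 0 to 4.9 and 2.1 to 15.1 over the libraries. Of the 7 other assembly factors, none passed. Efemp1, a fibulin, had the smallest p against air, with 0.25 in high smoke (limma adjusted p = 0.141) and 0.29 in low smoke (limma adjusted p = 0.702), and Fbln1 had it against low smoke (0.26, limma adjusted p = 0.19). Of the 8 other cross-linking genes, none passed. Atp7a, the copper pump that supplies lysyl oxidases, was at -0.29 in high smoke against air (limma adjusted p = 0.0651), at -0.27 against low smoke (limma adjusted p = 0.0982), and Tll1, a procollagen proteinase, at -0.10 in low smoke (limma adjusted p = 0.927).

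Of the 18 genes of TGF-beta signalling, which microfibrils hold in store, 1 rose and 4 fell in high smoke against air. Over all genes tested 9.21% rose and 7.05% fell there. The ligand gene Tgfb1 rose 1.3-fold from 267 ± 39.3 to 346.5 ± 50.9 (SD, n = 7 each, limma adjusted p = 0.0276). Tgfbr2, its signalling receptor, fell by 0.37 on the log2 scale (limma adjusted p = 0.0109), Smad4, the shared transcription factor, fell by 0.27, Thbs1, an activator of the latent ligand, fell by 0.37, and Itgb6, an integrin chain that also activates it, fell by 0.30. The same 4 fell against low smoke (by 0.38, 0.21, 0.53 and 0.30), with 0 rising, where 2.98% of all genes fell and 3.8% rose. In low smoke against air the gene with the smallest p was Tgfb1 (0.17, limma adjusted p = 0.826). Of 8 matrix integrins, none passed against air, where Itga4 had the smallest p in high smoke (-0.50, limma adjusted p = 0.0524) and Itga5 in low smoke (0.07, limma adjusted p = 0.884). Itgav, a chain that binds RGD motifs, fell by 0.37 against low smoke (limma adjusted p = 0.0444).

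Of 7 elastin-degrading proteases tested, 2 rose in high smoke against air, the cathepsins Ctsl (1.39-fold, limma adjusted p = 0.00675) and Ctss (1.26-fold, limma adjusted p = 0.0397), and Ctss also rose against low smoke (1.31-fold). Mmp12, the macrophage elastase, stood at -0.19 (SE 0.35) and Mmp9 at -0.03 (SE 0.30), neither past the test. In low smoke against air Ctsk had the smallest p (-0.38, limma adjusted p = 0.724). Of 8 inhibitors, 2 rose and 1 fell in high smoke against air. Serpina1 encodes alpha-1 antitrypsin, which blocks neutrophil elastase, and rose 1.55-fold from 195 ± 33.4 to 303 ± 49.6 (SD, n = 7 each, limma adjusted p = 0.00241). Cst3, an inhibitor of cathepsins, rose 1.17-fold, and Reck, which restrains metalloproteinases, fell by 0.30. Against low smoke Serpina1 rose 1.45-fold and Reck fell by 0.24, and in low smoke against air Timp3 had the smallest p (0.16, limma adjusted p = 0.822).

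Of the 6 relatives of Sparc tested, none passed against air. Spock2 had the smallest p in high smoke (-0.38, limma adjusted p = 0.229) and fell by 0.69 against low smoke (limma adjusted p = 0.0463), while Spock3 had it in low smoke (1.63, limma adjusted p = 0.702). Of the 4 genes of elastin chaperoning and its cell receptor, none passed. Fkbp10, an endoplasmic reticulum chaperone, stood at -0.23 in high smoke against air (limma adjusted p = 0.0964) and -0.20 against low smoke (limma adjusted p = 0.158), and Neu1 at 0.05 in low smoke (limma adjusted p = 0.968).

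**Figure D4:**
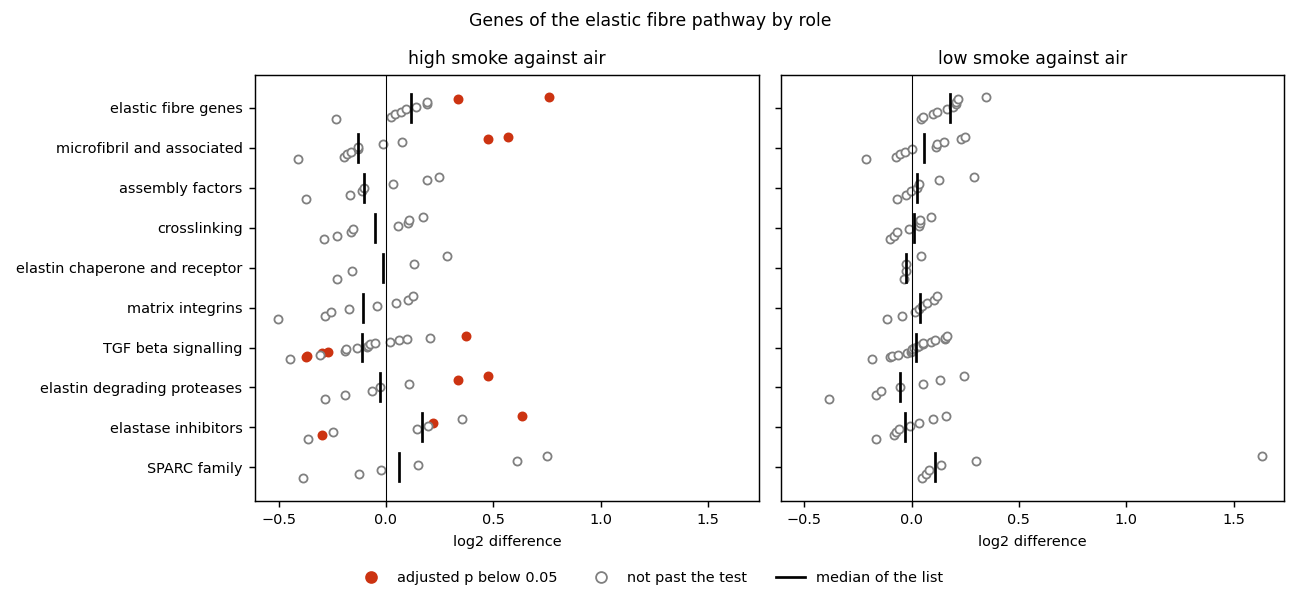
Log2 differences (horizontal axes) of the 10 elastic fibre genes and of the other pathway genes by role (rows), in high smoke against air and low smoke against air; filled points passed the test and black bars are list medians. In high smoke 7 of the 76 other genes passed upward and 5 downward, and in low smoke none passed.

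Some markers of cells that make elastic fibres, and some of other cell types, passed the test in high smoke against air. In bulk tissue, fewer cells of a type and less RNA per cell cannot be told apart. Beside the marker counts given here, 9.21% of all genes tested rose and 7.05% fell in high smoke against air. With so few genes in each list, such counts do not show that a list departs from those shares. Of 10 smooth muscle markers 3 rose in high smoke against air and 0 fell: Acta2 1.3-fold, Tagln 1.52-fold and Cnn1 1.42-fold. Whether or not they passed, only 6 of the 10 lay above air. The summed level of the list ran from 12807 to 22055 in air, 15438 to 20459 in low smoke and 16348 to 26427 in high smoke. Of 9 fibroblast markers tested 2 rose (Tcf21, 1.39-fold, and Dcn), with sums of 30195 to 39477 in air, 33687 to 48670 in low smoke and 32307 to 43590 in high smoke. Of 7 pericyte markers none passed against air (sums of 4247 to 5486 in air and 4601 to 5520 in high smoke). Of 5 mesothelial markers none passed (483 to 1453 in air and 410 to 1630 in high smoke). Of 6 markers of pulmonary vein cardiac muscle none passed (104 to 1312 in air and 137 to 1099 in high smoke). Cartilage markers were near 0, summing to 9.72 to 45.8 over all libraries, with Acan at 0 to 1.9. Of 13 mitochondrial transcripts, a list kept as a sign of RNA quality, 5 fell and 0 rose in high smoke, and 3 lay above air. Their summed level was nearly equal on average, at 131030 in air (113950 to 153810) and 129510 in high smoke (79204 to 156080). That sum hides unlike directions, since the median log2 difference of the list was -0.312. The abundant Mt-co2 ran from 17026 to 40378 in air and from 19042 to 70662 in high smoke. The mean of Mt-atp6 was 7921 in air and 4123 in high smoke. Of 4 red cell markers 2 rose (Hbb 1.88-fold and Hba-a2 1.62-fold), and 3 of the 4 lay above air. The alpha globin gene Hba-a1 did not, at 843 to 1305 in air and 591 to 1265 in high smoke.

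Rises of similar or larger size were measured in epithelial markers. Of 6 alveolar type 2 markers 2 rose in high smoke against air, Sftpc 1.62-fold and the surfactant-processing protease gene Napsa 1.76-fold, with sums of 137620 to 178100 in air and 173650 to 242910 in high smoke. Of 6 alveolar type 1 markers 2 rose, Ager 1.61-fold and Hopx 1.28-fold, with sums of 45060 to 54073 in air and 53842 to 64380 in high smoke. Of 8 endothelial markers the tight junction gene Cldn5 rose 1.36-fold and the angiopoietin receptor gene Tek fell by 0.38 on the log2 scale (sums of 37112 to 44637 in air and 36514 to 44083 in high smoke). Of 5 macrophage markers 1 fell, Cd68 by 0.41 (sums of 4682 to 5732 in air and 4729 to 6634 in high smoke). Whether or not they passed, 5 of 6 type 2, 4 of 6 type 1, 3 of 8 endothelial and 3 of 5 macrophage markers lay above air in high smoke. So did 7 of 9 fibroblast markers. No marker passed in low smoke against air. Without high smoke replicates 1, 3 and 7 Napsa still passed against air (0.49, limma adjusted p = 0.0441) and the other markers named here did not. The sizes shrank in each marker that had passed against air except Hba-a2, which went from 0.69 to 0.71. Acta2 went from 0.38 to 0.33 and Ager from 0.69 to 0.62. Tagln went further, from 0.61 to 0.38, as did Tcf21, from 0.47 to 0.23. The median of the whole smooth muscle list was 0.261 in place of 0.211. The part of these markers in the rises of Mfap5 and Sparc was not tested.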

How the data were processed

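The table the authors deposited holds a signal per gene and library. Its low values step as gene counts divided by 1 factor per library would, which was read from the values. STAR 2.7.3a, Partek, DESeq2 and build rn6 are named in the submitters' processing notes, with no role given. Each library was made from 1 µg of total RNA (RNA integrity number 9.0 or higher), per the labels' protocols. Within 0.02 reads, 80.7% to 82.8% of values under 200 reads were whole, so whole counts were not recovered. Dividing each total by the commonest nonzero value gave the read equivalents. Values became log2(value + 1), and a single limma 3.58.1 model (R 4.3.3, intensity trend, robust off) covered the 3 groups, with 14414 genes of mean at least 10. Tests were two-sided, with Benjamini-Hochberg adjustment over all genes tested, and the fit was tested on simulated data. Fold changes are on the log2(value + 1) scale. Levels of different genes were not compared with each other, since transcript lengths were not used. The summed levels of the lists do add different genes. They therefore follow mainly the most abundant genes of a list.

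The members, lists and alternatives were chosen with earlier results of these data known. Named genes were the 10 members, the pathway genes past the threshold in a comparison (or, where a list had none, the one with the smallest p) and the 3 genes most like each member. Mmp12, Mmp9, Fbn2, Mfap2, Sftpc, LOC108348062, Mapk7, Zfp474, U2, Acan and the marker genes were named outside that rule after their values were seen.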

Additional observations from a re-analysis of the deposited data

Results flagged for a closer look

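Over 30 sets of values (10 genes in 3 groups), the highest library of a group stood far from its nearest neighbour, relative to the range of the group, in 2. Chance alone does this in about 1 in 20 groups. Both were in low smoke replicate 5: Eln at 5964.8, where the next library held 4031, and Loxl1 at 295.1, where the next held 217. Without that library the low smoke difference from air was 0.09 for Eln and 0.04 for Loxl1 on the log2 scale.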

How the results depend on the processing

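Alternatives covered the pseudocount, the filter on low values, the scaling, robust or weighted limma fits, a fit of only the 2 groups compared, an exact rank-sum test and leaving out libraries. Between low smoke and air 0 of the 10 genes and 0 pathway genes were called under each of them. The rank-sum test could hardly call any gene in that comparison. In high smoke against air the 2 of 10 became 1 in the fit of 2 groups, 1 in the rank-sum test and 0 without high smoke replicates 1, 3 and 7, and ran from 1 to 2 with single libraries left out. The 12 pathway genes became 3 in the rank-sum test and 0 without those 3 libraries. Between high and low smoke the 1 of 10 became 0 with no filter, with array weights, in the fit of 2 groups, in the rank-sum test and without the 3 libraries, and ran from 0 to 1 with single libraries left out. The 11 pathway genes became 5 with no filter, 6 with array weights, 2 in the rank-sum test and 0 without the 3 libraries, and ran from 0 to 13 with single libraries left out. The cause of these shifts was not tested.

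The log2 differences that changed sign belonged to genes that did not pass. In high smoke against air, scaling to the same total gave -0.005 for Mfap4, -0.05 for Ltbp4 and -0.03 for Emilin1. Quantile normalization gave -0.03 for Mfap4 and -0.01 for Ltbp4, and scaling to the upper quartile gave -0.001 for Ltbp4. Without the 3 libraries Lox stood at -0.01, Emilin1 at -0.05 and Spock2 at 0.02. Quantile normalization gave -0.01 for Mfap4 in low smoke against air. In high smoke against low smoke, scaling to the same total gave -0.001 for Fbln5 and -0.02 for Mfap4, quantile normalization gave -0.02 for Mfap4, and leaving out the 3 libraries gave -0.05 for Fbln5 and 0.04 for Ltbp4. With single libraries left out, Ltbp4 ran from -0.01 to 0.06 and Emilin1 from -0.03 to 0.12 in high smoke against air, and Neu1 from -0.01 to 0.09 in low smoke against air. Between high and low smoke Fbln5 ran from -0.01 to 0.07, Lox from -0.10 to 0.05, Loxl1 from -0.07 to 0.05, Mfap4 from -0.03 to 0.06 and Ltbp4 from -0.08 to 0.01. Of the values of the 10 genes under the alternatives, 965 kept their direction and their side of the threshold, 20 lost their call and 35 changed sign. Most belong to results that had not passed and could lose no call, and leaving out a library of the third group cannot move a difference. For Mfap5 in high smoke against low smoke the call was lost in 9 fits with 1 library left out and in 5 other alternatives. The median of all genes moved furthest when libraries were scaled to the same total (-0.0775 in high smoke against air). No paired analysis was possible because replicate numbers only name the rats within a group.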
